A study of Mus musculus with 15 samples.

Results

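Ribosomal protein pseudogenes were taken from the RNA-seq count tables by symbol alone: every gene whose symbol starts with Rpl or Rps and contains -ps followed by a digit. The rule found 275 pseudogenes among 50051 counted features. They are named after 56 ribosomal protein genes, here called their parents, of which 55 are in the annotation. The samples were testes of mice at postnatal day 28, all labelled strain B6D2F1. In 3 homozygous libraries, labelled KO and Chr18-/-, both alleles of a piRNA locus on chromosome 18 were deleted. In 3 heterozygous libraries, labelled HT control and Chr18+/-, 1 allele was. In 3 wild-type libraries, labelled WT control and Chr18+/+, neither was. A further 6 libraries, 3 homozygous and 3 heterozygous, held small RNA from the same kind of sample. The labels do not say that the libraries of a group came from separate animals, so the p-values below measure the spread between these libraries, which may be technical.

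Ribosomal proteins are the protein parts of the large (Rpl) and small (Rps) ribosomal subunits, and their messenger RNAs are among the most abundant in a cell. Processed pseudogenes are copies of such messenger RNAs that were reverse transcribed and inserted elsewhere in the genome, so they carry no introns and come without the promoter of the parent gene. The testis is known for transcribing many such copies. B6D2F1 is the usual name for the hybrid of a C57BL/6 and a DBA/2 parent, and the mm10 assembly that the counts refer to is of C57BL/6J origin.

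Some pseudogenes differ from their parent at few bases. Stretches of those that the results turn on are shown with the parent's coding sequence (GENCODE M21 transcripts, mm10 coordinates, given on the strand of the gene). Each stretch is 70 bases, chosen for the most mismatches to the parent, and capitals mark the bases at which a pseudogene and its parent differ (in a parent, the bases at which any copy shown differs). Rpl15-ps2 lies at chr9:72060937-72061549 on the plus strand and differs from Rpl15 at 8 of its aligned bases, 3 of them here.
Rpl15: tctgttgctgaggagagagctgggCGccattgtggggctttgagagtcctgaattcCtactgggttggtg
Rpl15-ps2: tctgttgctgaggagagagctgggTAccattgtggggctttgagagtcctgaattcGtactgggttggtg
Rpl34-ps1 lies at chr6:71124610-71124963 on the plus strand and differs from Rpl34 at 2 bases, 1 of them here.
Rpl34: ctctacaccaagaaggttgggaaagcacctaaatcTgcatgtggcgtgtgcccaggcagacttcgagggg
Rpl34-ps1: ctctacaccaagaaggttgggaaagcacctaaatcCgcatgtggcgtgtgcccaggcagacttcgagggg
Rpsa-ps10 lies at chr3:150072658-150073542 on the minus strand and differs from Rpsa at 6 bases, 2 of them here.
Rpsa: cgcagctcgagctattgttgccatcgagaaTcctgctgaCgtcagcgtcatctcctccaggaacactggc
Rpsa-ps10: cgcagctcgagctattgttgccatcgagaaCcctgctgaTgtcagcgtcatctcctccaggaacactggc
The Rps15a copies are shown over coding bases 4 to 73 of Rps15a, counted from the start codon. They lie at chr4:150847113-150847507 on the plus strand (Rps15a-ps3), chr4:132220046-132220437 on the minus strand (Rps15a-ps4), chr2:152185291-152185682 on the minus strand (Rps15a-ps7) and chr4:53791070-53791456 on the minus strand (Rps15a-ps8).
Rps15a: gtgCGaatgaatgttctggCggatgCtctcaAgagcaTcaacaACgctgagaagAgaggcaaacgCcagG
Rps15a-ps3: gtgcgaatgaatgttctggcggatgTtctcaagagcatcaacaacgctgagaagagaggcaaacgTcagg
Rps15a-ps4: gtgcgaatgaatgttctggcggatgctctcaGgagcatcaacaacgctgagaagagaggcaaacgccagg
Rps15a-ps7: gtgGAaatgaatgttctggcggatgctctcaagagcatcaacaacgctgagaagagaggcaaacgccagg
Rps15a-ps8: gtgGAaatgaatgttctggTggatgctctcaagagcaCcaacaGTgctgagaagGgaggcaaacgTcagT
In this stretch Rps15a-ps8 has 9 mismatches to the parent, Rps15a-ps3 and Rps15a-ps7 have 2 each, and Rps15a-ps4 has 1.

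Total counts on the kit strand ran between 21684791 and 41513634 per RNA-seq library. The locus precursor transcript had 4, 6 and 3 counts in the homozygous libraries, 8948, 3983 and 4422 in the heterozygous libraries and 9595, 7283 and 5609 in the wild-type libraries. Scaled to library size these were 0.142, 0.210 and 0.115 CPM (counts divided by library size, scaled by TMM) in homozygous libraries, 205, 133 and 152 CPM in heterozygous libraries and 296, 269 and 255 CPM in wild-type libraries, so every library stood on the side its label gives. Cell type markers differed between the groups. Of 6 Leydig cell markers, Insl3 had no count in any library and the other 5 were lower in homozygous than in wild-type testes. Their summed level was 404 to 551 CPM in homozygous, 439 to 581 CPM in heterozygous and 1012 to 1130 CPM in wild-type libraries. Of 8 spermatid markers, 4 were lower and 1 was higher in homozygous testes, with summed levels of 6834 to 9239 CPM in homozygous, 4072 to 10423 CPM in heterozygous and 12350 to 12844 CPM in wild-type libraries. Of 6 spermatocyte markers, 4 were higher and none lower, at 1433 to 1560 CPM in homozygous, 1361 to 1636 CPM in heterozygous and 1093 to 1211 CPM in wild-type libraries. Of 6 Sertoli cell markers, none was called in homozygous and 1 (Wt1, 0.33) was called higher in heterozygous against wild-type testes, and they summed to 166 to 191 CPM in homozygous, 169 to 178 CPM in heterozygous and 156 to 165 CPM in wild-type libraries. In a bulk sample fewer cells of a type and less RNA per cell cannot be told apart.

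Of the 275 pseudogenes, 183 had at least 1 count and 92 had none in any library. They spread over 20 chromosomes, with between 5 and 35 on each, and chromosome X held the 35. The largest families were copies of Rps12 (23), Rpl31 (21), Rpl21, Rpl23a and Rps19 (14 each). Together the pseudogenes had 124550 counts over the 9 libraries, or 10573 to 19485 per library. The 10 with the highest mean level held 49.7% of these counts. The annotation calls 263 of them processed pseudogenes, 6 transcribed processed pseudogenes and 6 protein-coding.

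Whether a pseudogene had counts went with its likeness to the parent. Of 56 pseudogenes at or below 90% identity to the parent transcript, 43 had no count and 1 passed the low-count filter. Between 90% and 95%, 19 of 58 had no count and 4 passed. Between 95% and 98%, 16 of 64 had no count and 13 passed. Above 98%, 13 of 96 had no count and 53 passed. Median identity was 98.9% in the 71 that passed, 95.8% in the 112 with counts below the filter and 90.1% in the 92 without counts. The 92 include 23 pseudogenes wholly covered by a same-strand gene, which were not measured, as described below. Their median identity was 98.5%, so most of the 13 without counts above 98% were among them. Even among the 15 identical to the parent over all aligned bases, 12 had counts. Rpl38-ps2, identical to Rpl38 over its 213 bases, had 6578 counts, and Rps6-ps4, identical to Rps6, had 5255. In Rpl38-ps2, 47.6% of the 50-base windows, the length of 1 read, crossed an exon junction of the parent, where the parent's genomic sequence is broken by an intron. For all copies that passed, the median share of such windows was 23.7%. A few copies had counts at low identity, such as Rpl36a-ps3 (87.5%, 259 counts), Rpl31-ps4 (91.7%, 224 counts) and Rpl22-ps1 (93.5%, 385 counts), chosen after their values were seen. How reads were divided between a copy and its parent by the aligner was not tested.

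**Figure D1:**
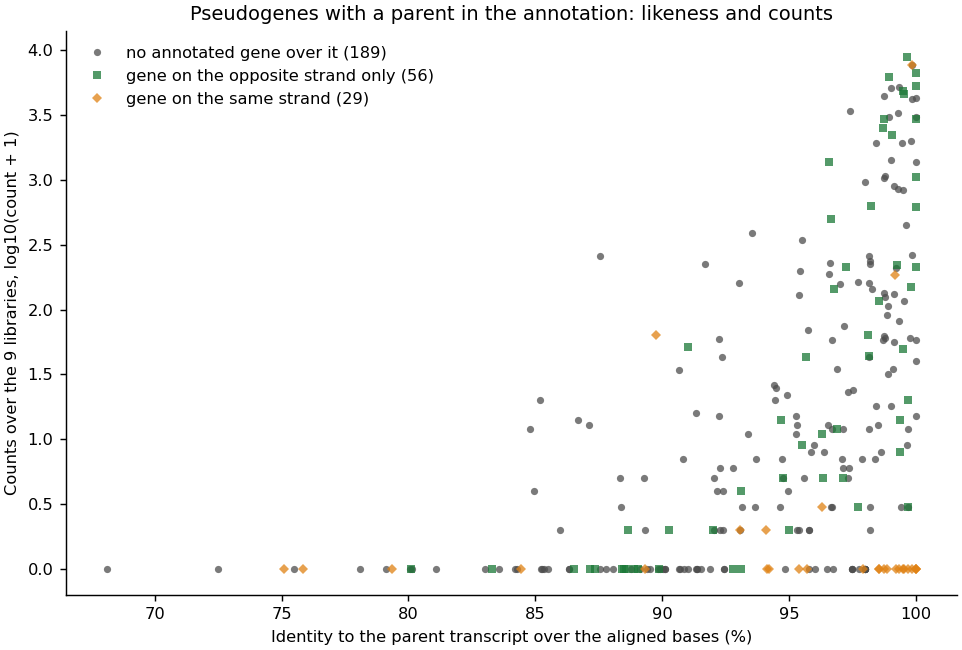
Counts over the 9 RNA-seq libraries, as log10(count + 1), against percent identity to the parent transcript, 1 point per pseudogene with a parent in the annotation; colours give the annotated genes lying over it. High counts stand at high identity, and the row of orange points at 0 holds pseudogenes covered by a gene on the same strand.

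Position set a second limit. No annotated gene lay over 190 of the pseudogenes, a gene on the opposite strand only over 56, and a gene on the same strand over 29. All 23 pseudogenes wholly covered by a same-strand gene had 0 counts: the authors' counting discards fragments that lie over 2 features of 1 strand, so these 23 were not measured. The 6 that were partly covered all had counts, among them Rpl19-ps11 with 7698, of whose bases 13.5% lie under a microRNA gene. Reads from the opposite strand were few: their total was 0.342% (median over the 71) of the kit-strand total, and over 10% in 5 pseudogenes, the highest being Rpl28-ps1 at 38.7%.

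Per length, Rpl38-ps2 had the highest mean level of all pseudogenes, 116 CPM per kb, beside 106 CPM per kb of exon for Rpl38. The counts of a parent cover its introns as well, and its exon length merges the exons of all its annotated transcripts. For Rpl15 this length was 2473 bases, beside 613 bases for Rpl15-ps2. Levels per kb of a parent and of a copy are thus not measured alike. Rpl17-ps5 had the highest CPM, and its 59.7 CPM per kb stood beside 4.95 CPM per kb of exon for its parent Rpl17, so the annotated copy drew more counts per length than the gene it is named after. Rpl15-ps2 averaged 15.03 CPM per kb and Rpl15 5.92. Rpl34-ps1 averaged 21.2 CPM per kb and Rpl34 28.9. Parents were themselves measured unevenly: Rpl13 and Rplp1, which every cell uses, had 0 counts in all 9 libraries, so a 0 in these tables does not show that a gene is silent.

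Summed over all 275, the level was 444 ± 10.5 CPM in homozygous libraries, 438 ± 20.1 CPM in heterozygous libraries and 517 ± 54.1 CPM in wild-type libraries (SD, n = 3 each). The summed level of their parents was 4124 ± 107 CPM in homozygous, 4012 ± 172 CPM in heterozygous and 4694 ± 438 CPM in wild-type libraries (SD, n = 3 each). In every library the pseudogenes stood at 10.7% to 11.1% of their parents. The 26 pseudogenes called in any comparison below had mean sums of 104 CPM in homozygous, 108 CPM in heterozygous and 163 CPM in wild-type libraries. They were chosen by these same values. The 249 others summed to 328 to 356 CPM in homozygous and 321 to 341 CPM in heterozygous libraries. In wild-type replicates 1, 2 and 3 they summed to 400, 330 and 330 CPM, so only wild-type replicate 1 stood above the other libraries. Of 75 tested ribosomal protein genes, 9 were higher and 22 lower in homozygous than in wild-type testes, with a median log2 fold change of -0.14. In heterozygous against wild-type testes, 6 were higher and 26 lower, with a median of -0.15.

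Homozygous and wild-type testes were compared gene by gene with edgeR's quasi-likelihood test over all 20782 features that passed the filter, with a threshold of 0.05 on the adjusted p. Of the 71 pseudogenes tested, 5 were higher (7.04%) and 19 lower (26.8%) in homozygous testes. Over all features tested 9.68% were higher and 11.1% lower, 20.8% in either direction. The share of higher calls was thus near the background. That of lower calls was above it among the 71, but 5 of the 19 lower calls passed the filter only through the wild-type group. A pseudogene that passed the filter through only 1 group had to differ, so these shares are a description of the 71 and not of the 275. Of the 71, 6 passed through 1 group alone and all 6 were called in homozygous testes, among them Rps15a-ps8, Rpl38-ps1, Rps18-ps1 and Rpl3-ps2 through the wild-type group and Rpl5-ps1 through the homozygous group. Their directions were fixed by the filter and their p-values are no independent test. Of the 65 others, 18 were called in either direction, beside the 20.8% over all features. The median log2 fold change was -0.25 in the 71 and -0.01 over all features. Without homozygous replicate 2 the count was 9 in place of 24, without homozygous replicate 3 it was 11, and without wild-type replicate 1 it was 13. Each of these fits had 1 library fewer, and the share of all features called in them is not given here. Whether the drop is particular to the pseudogenes was not tested. Whether the lower Leydig and spermatid markers took part in these calls was not tested.

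In heterozygous against wild-type testes, 3 of the 71 were higher and 16 lower, beside 11.1% higher and 12.9% lower over all features, 23.9% in either direction. Of the 65 that did not need a single group to pass the filter, 14 were called. The median log2 fold change was -0.26 in the 71 and -0.00 over all features. Without heterozygous replicate 3 the count was 8 in place of 19, without wild-type replicate 1 it was 9, and it was 12 without heterozygous replicate 2 and likewise without wild-type replicate 2. Here too the share of all features called in these fits is not given. Both comparisons share the 3 wild-type libraries. Between homozygous and heterozygous testes, which share none, edgeR and DESeq2 each called 0 of the 71, and 2 had an unadjusted p under 0.05, 1 of them Rps24-ps3. Over all features edgeR called 0.0289% in that comparison, 0.0144% higher and 0.0144% lower. The median difference of the 71 was 0.01 on the log2 scale.

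Rpl15-ps2 had the largest rise of any pseudogene past the threshold. Its parent Rpl15 encodes a protein of the large subunit. Rpl15-ps2 had 13.2, 11.7 and 12.2 CPM in homozygous libraries, 9.22, 14.1 and 10.7 CPM in heterozygous libraries and 4.04, 3.44 and 4.23 CPM in wild-type libraries. Every homozygous and heterozygous library was above every wild-type library. The log2 fold change was 1.67 (SE 0.17, edgeR adjusted p = 0.000119) in homozygous and 1.54 (SE 0.17, adjusted p = 0.000244) in heterozygous against wild-type testes. Rpl15 itself had 11.3, 15.2 and 13.1 CPM in homozygous libraries, 15.01, 15.1 and 13.5 CPM in heterozygous libraries and 15.7, 17.2 and 15.7 CPM in wild-type libraries. Its log2 fold change of -0.30 in homozygous testes did not pass (adjusted p = 0.1001). For every 100 counts of Rpl15, not corrected for length, there were thus 117, 77.4 and 92.9 counts of the copy in homozygous libraries, 61.4, 93.4 and 79.2 in heterozygous libraries and 25.8, 19.96 and 27.0 in wild-type libraries.

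The copy lies in an intron of Tcf12, on the strand opposite to this gene, which encodes a basic helix-loop-helix transcription factor; none of its bases overlap an annotated Tcf12 exon. Tcf12 was also higher, at 108 ± 8.13 CPM in homozygous, 118 ± 10.4 CPM in heterozygous and 78.1 ± 6.10 CPM in wild-type testes (SD, n = 3 each). The log2 fold change of Tcf12 was 0.47 in homozygous (edgeR adjusted p = 0.00850) and 0.59 in heterozygous testes (adjusted p = 0.00340), less than that of the copy. Opposite-strand reads at the copy came to 35 over the 9 libraries, against 2480 on its own strand. Among the 10 nearest tested genes that do not overlap it, 5 on each side, 3 were called higher and none lower in homozygous testes, the largest being BC065403 at 0.81.

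Rpl34-ps1, a copy of the large-subunit gene Rpl34, changed the other way. It had 3.58, 2.83 and 3.20 CPM in homozygous libraries, 4.05, 4.38 and 3.40 CPM in heterozygous libraries and 15.1, 14.6 and 16.4 CPM in wild-type libraries. Wild-type libraries all stood above 14 CPM and the other 6 all below 5 CPM. The log2 fold change was -2.26 (SE 0.14, edgeR adjusted p = 2.75e-06) in homozygous and -1.96 (SE 0.14, adjusted p = 1.06e-05) in heterozygous testes. Rpl34 had 76.0, 78.4 and 75.6 CPM in homozygous libraries, 89.5, 79.8 and 71.7 CPM in heterozygous libraries and 73.7, 69.0 and 74.5 CPM in wild-type libraries. Its log2 fold change of 0.08 in homozygous testes did not pass (adjusted p = 0.554). Every 50-base window of Rpl34-ps1 also occurs in another annotated exon, so a single read of that length matches elsewhere too, and only the mate in a read pair could add to its placing. No annotated gene lies over Rpl34-ps1. The nearest tested gene, Thnsl2, lies 3.20 kb away and had a log2 fold change of 0.03, and of the 10 nearest genes 2 were called lower and 1 higher.

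Rpsa-ps10 was the 1 pseudogene among the 10 with the highest mean level that passed the threshold. Rpsa encodes a small-subunit protein that is also known as a laminin receptor. Rpsa-ps10 had 9.60, 7.45 and 7.55 CPM in homozygous libraries, 13.5, 10.4 and 7.15 CPM in heterozygous libraries and 48.1, 38.3 and 35.3 CPM in wild-type libraries. The lowest wild-type library was thus above the highest of the others by a wide margin. The log2 fold change was -2.31 (SE 0.21, edgeR adjusted p = 4.79e-05) in homozygous and -1.97 (SE 0.20, adjusted p = 0.000165) in heterozygous testes. Rpsa had 65.3, 70.8 and 61.4 CPM in homozygous libraries, 66.8, 70.1 and 61.6 CPM in heterozygous libraries and 77.9, 66.9 and 61.6 CPM in wild-type libraries, and did not pass (log2 fold change -0.07, adjusted p = 0.689). The 9 Rpsa pseudogenes summed to 10.5 ± 1.52 CPM in homozygous, 13.0 ± 3.03 CPM in heterozygous and 43.2 ± 6.78 CPM in wild-type testes (SD, n = 3 each), so most of the Rpsa copies' counts in wild type came from this 1 locus. The nearest tested gene, the processed pseudogene Gm6439, lies 442 kb away and was higher, at 1.31. Of the 10 nearest, none was called lower and 2 were called higher.

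**Figure D2:**
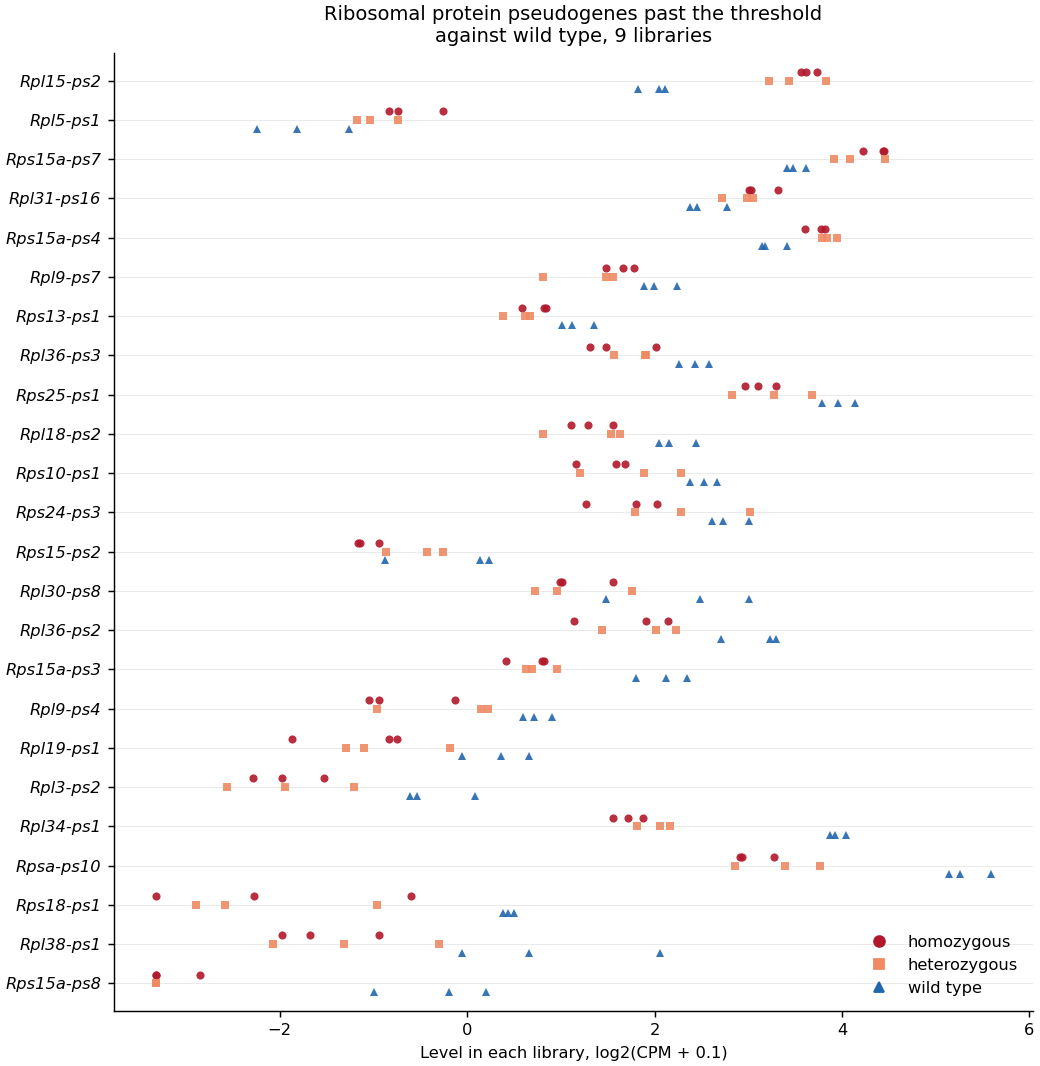
Level in each library, as log2(CPM + 0.1), of 24 pseudogenes past the threshold in homozygous or heterozygous against wild-type testes, ordered by the homozygous change. In the rows of Rpl15-ps2, Rpl34-ps1 and Rpsa-ps10 the 3 wild-type libraries stand apart from the other 6, while in Rpl30-ps8 and Rps15-ps2 1 wild-type library lies near or among the others.

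Copies of Rps15a did not all move together. Their log2 fold changes in homozygous testes spread over 6.35, the widest of any family. That width was set by Rps15a-ps8, which passed the filter only through the wild-type group. In the other families with 2 or more tested copies the spread ran from 0.01 (Rpl36a) to 2.87 (Rpl38). Rps15a encodes a small-subunit protein, and 6 of its 8 pseudogenes passed the filter, 2 of them higher and 2 lower in homozygous testes. The parent had 108, 123 and 119 CPM in homozygous libraries, 119, 111 and 110 CPM in heterozygous libraries and 120, 108 and 96.7 CPM in wild-type libraries, and its log2 fold change of 0.11 did not pass (edgeR adjusted p = 0.458). Rps15a-ps7 was higher in homozygous testes, with 18.6, 21.7 and 21.6 CPM in homozygous libraries, 14.99, 16.9 and 21.8 CPM in heterozygous libraries and 10.6, 11.0 and 12.2 CPM in wild-type libraries. Its log2 fold change was 0.88 (SE 0.14, adjusted p = 0.00249) in homozygous and 0.67 (SE 0.14, adjusted p = 0.00795) in heterozygous testes. Rps15a-ps4, which the annotation calls transcribed, had 12.1, 14.0 and 13.6 CPM in homozygous libraries, 15.3, 14.2 and 13.7 CPM in heterozygous libraries and 8.97, 10.6 and 8.73 CPM in wild-type libraries. It was also higher, at 0.49 (SE 0.12, adjusted p = 0.0140) in homozygous and 0.61 (SE 0.12, adjusted p = 0.00529) in heterozygous testes. Its homozygous call was lost without homozygous replicate 2 or 3 or wild-type replicate 3, with values of 0.44 to 0.47.

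Rps15a-ps3 was lower in homozygous testes, with 1.66, 1.64 and 1.23 CPM in homozygous libraries, 1.44, 1.84 and 1.51 CPM in heterozygous libraries and 3.39, 4.25 and 5.00 CPM in wild-type libraries. The lowest wild-type library was above all others. The log2 fold change was -1.46 (SE 0.21, edgeR adjusted p = 0.00146) in homozygous and -1.40 (SE 0.21, adjusted p = 0.00190) in heterozygous testes. Rps15a-ps8 was all but missing outside wild type, with 0, 0 and 1 counts in homozygous libraries, 0 in each heterozygous library and 13, 21 and 23 counts in wild-type libraries. With a floor of 3 counts set for the heterozygous group, it was 23.9-fold lower in heterozygous than in wild-type testes. That ratio takes the 57 wild-type counts as exact and leaves out the spread between libraries, so it is not a bound. In homozygous testes the ratio of summed counts per scaled depth was 57.9-fold lower, with an exact 95% interval of 9.99 to 2328 that covers counting error only. It passed the filter only through the wild-type group, so its p-value is not given as a test. The copies Rps15a-ps2 and Rps15a-ps5 did not pass in either comparison. All 8 copies summed to 45.6 ± 2.26 CPM in homozygous, 46.0 ± 1.10 CPM in heterozygous and 37.6 ± 1.07 CPM in wild-type testes (SD, n = 3 each).

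**Figure D3:**
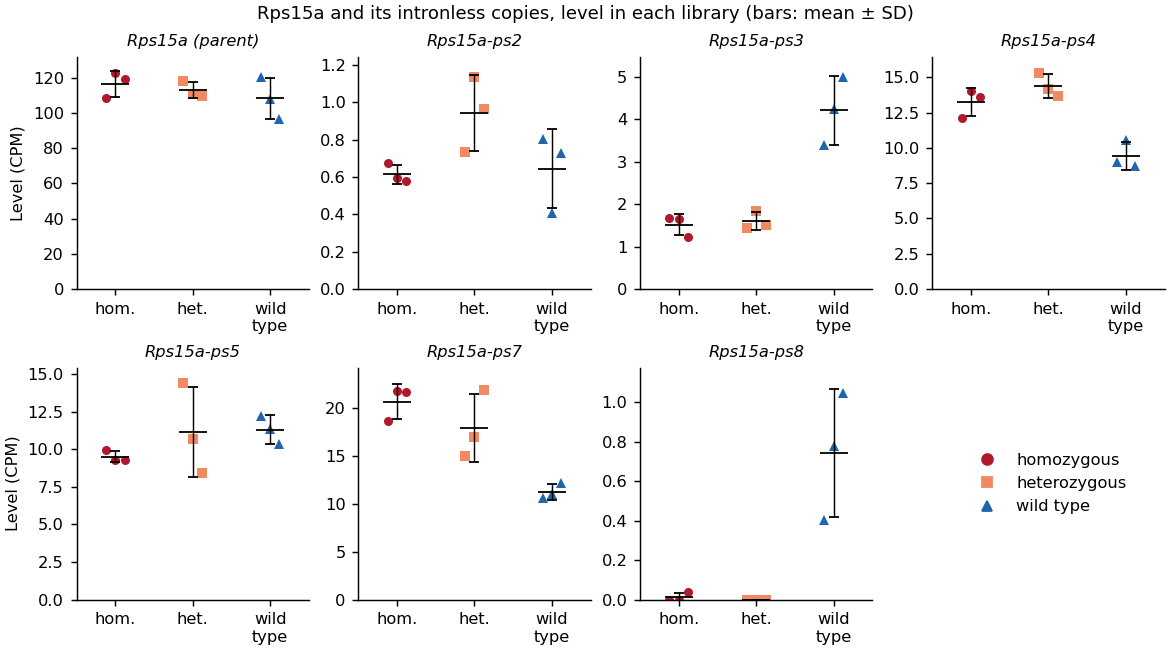
Level in CPM of the parent Rps15a and its 6 tested pseudogenes in each library, with each panel on its own axis from 0; black bars give the mean and SD of 3 libraries. Rps15a-ps4 and Rps15a-ps7 stand higher and Rps15a-ps3 and Rps15a-ps8 lower in homozygous and heterozygous than in wild-type libraries, while the parent's libraries overlap.

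The other pseudogenes past the threshold fell into a few higher and many lower ones. Rpl31-ps16 was higher in homozygous testes at 0.60 (SE 0.16, edgeR adjusted p = 0.0198), with 8.07, 9.89 and 7.97 CPM in homozygous libraries, 6.47, 8.19 and 7.80 CPM in heterozygous libraries and 5.12, 5.36 and 6.73 CPM in wild-type libraries. That call was lost without homozygous replicate 2 (0.49), wild-type replicate 1 (0.52) or wild-type replicate 2 (0.55). Rpl5-ps1 rested on few counts, 13, 21 and 13 in homozygous libraries, 17, 15 and 10 in heterozygous libraries and 6, 3 and 7 in wild-type libraries. Its log2 fold change of 1.496 (SE 0.41, adjusted p = 0.0252) was lost without homozygous replicate 2 or 3 or wild-type replicate 1 or 2. Rpl5-ps1 passed the filter only through the homozygous group, so this p-value is no independent test. Its parent Rpl5, whose protein binds the 5S ribosomal RNA, was also higher, at 0.29 (adjusted p = 0.0275).

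Rpl38-ps1 had 6, 12 and 4 counts in homozygous libraries, 31, 9 and 4 counts in heterozygous libraries and 132, 40 and 19 counts in wild-type libraries. The wild-type libraries spread widely, with wild-type replicate 1 far above the others. The log2 fold change was -3.03 (SE 0.66, edgeR adjusted p = 0.00931) in homozygous testes and -2.14 without wild-type replicate 1. In heterozygous testes it was -2.41 (adjusted p = 0.0146), and the call was lost without wild-type replicate 1 (-1.52) or heterozygous replicate 3 (-2.05). Rps18-ps1, with 3, 16 and 0 counts in homozygous libraries, 18, 2 and 1 counts in heterozygous libraries and 39, 34 and 29 counts in wild-type libraries, was lower at -2.44 (SE 0.73, adjusted p = 0.0351). That call was lost with DESeq2 and without homozygous replicate 1 or 3 or any 1 of the 3 wild-type replicates. Rpl38-ps1 and Rps18-ps1 passed the filter only through the wild-type group. Their p-values, and whether their calls were kept or lost, are thus no independent test.

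The remaining lower calls in homozygous testes lay between -2.03 and -0.81. Rpl3-ps2 fell by 2.03, Rpl19-ps1 by 1.65 and Rpl9-ps4 by 1.53 on the log2 scale (edgeR adjusted p between 0.0150 and 0.0199). These 3 copies had mean levels under 2 CPM in every group. Rpl3-ps2 passed the filter only through the wild-type group, so its p-value is no independent test. Rpl36-ps2, in an intron of Abr on the opposite strand, fell by 1.34 (SE 0.27, adjusted p = 0.00684), with 4.32, 2.10 and 3.66 CPM in homozygous libraries, 4.58, 3.94 and 2.61 CPM in heterozygous libraries and 9.28, 9.72 and 6.46 CPM in wild-type libraries. Abr was lower as well, by 0.34 (adjusted p = 0.0268). Rpl30-ps8 fell by 1.30, Rps15-ps2 by 1.16, Rps24-ps3 by 1.09, Rps10-ps1 by 1.06, Rpl18-ps2 by 0.93, Rps25-ps1 by 0.85 and Rpl36-ps3 by 0.82 (adjusted p between 0.0110 and 0.0466). Rps25-ps1 had 9.74, 7.73 and 8.51 CPM in homozygous libraries, 12.7, 9.59 and 6.98 CPM in heterozygous libraries and 17.5, 15.4 and 13.7 CPM in wild-type libraries, with all wild-type libraries above the rest. Rps24-ps3 had 3.97, 2.31 and 3.39 CPM in homozygous libraries, 7.98, 4.78 and 3.37 CPM in heterozygous libraries and 7.92, 6.54 and 6.00 CPM in wild-type libraries, so heterozygous libraries overlapped both other groups. Rps16-ps2, identical to Rps16, was the last of the 24 calls, at -0.81 (adjusted p = 0.0494), and was named after its value was seen. Rps13-ps1 and Rpl9-ps7 passed only in heterozygous testes, at -0.63 (adjusted p = 0.0421) and -0.75 (adjusted p = 0.0252); their values of -0.43 and -0.41 in homozygous testes did not. For neither was the difference between homozygous and heterozygous testes called. Rpl9-ps7 was lost with no scaling (-0.63) and without heterozygous replicate 3 (-0.55) or wild-type replicate 1 (-0.63), and Rps13-ps1 was lost under most alternatives, at -0.70 to -0.53.

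Part of these calls was lost when a single library was left out, which also leaves fewer libraries for the test. Of the 23 named pseudogenes called in homozygous testes, 8 passed under each alternative that could be fitted. Of these, Rpl15-ps2, Rpl34-ps1, Rpsa-ps10, Rpl36-ps2, Rps15a-ps3 and Rps15a-ps7 did not need a single group to pass the filter. Rpl38-ps1 and Rps15a-ps8 did, so their presence among the 8 is no sign of stability. Leaving out homozygous replicate 2 ended the calls of Rpl3-ps2, Rpl19-ps1, Rpl9-ps4, Rpl30-ps8, Rps15-ps2, Rps24-ps3, Rps10-ps1, Rpl18-ps2, Rps25-ps1 and Rpl36-ps3, whose log2 fold changes were then -1.77 to -0.68. Leaving out homozygous replicate 3 ended 8 of these 10 calls, all but Rps10-ps1 and Rps25-ps1. Leaving out wild-type replicate 1 ended the calls of Rpl19-ps1, Rpl30-ps8, Rps15-ps2, Rps24-ps3, Rpl18-ps2 and Rpl36-ps3. Without wild-type replicate 2 the calls of Rpl3-ps2 and Rpl30-ps8 were lost, and without homozygous replicate 1 that of Rpl30-ps8. Rps15-ps2 was also lost with DESeq2 (-1.16), with no scaling (-1.10), with both strands summed (-1.11), with only the groups compared (-1.14) and without homozygous replicate 1, wild-type replicate 3 or either of heterozygous replicates 1 and 2.

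The pseudogenes with the highest levels mostly did not pass. Of the 10 with the highest mean CPM, the other 9 were Rpl17-ps5, Rpl3-ps1, Rpl19-ps11, Rpl38-ps2, Rpl14-ps1, Rps6-ps4, Rps10-ps2, Rps12-ps4 and Rps23-ps2. Their log2 fold changes lay between -0.27 and 0.20 in homozygous testes, with edgeR adjusted p between 0.185 and 0.926. Rpl3-ps1 had 29.0, 32.7 and 28.7 CPM in homozygous libraries, 32.8, 28.5 and 26.7 CPM in heterozygous libraries and 28.5, 24.7 and 25.2 CPM in wild-type libraries, and its 0.20 did not pass although its parent Rpl3 was lower, at -0.42 (adjusted p = 0.0247). Rpl14-ps1 stood at 34.6 CPM in wild-type replicate 1 and between 20.2 and 21.9 CPM in the 8 other libraries. A further library stood apart in Rpl31-ps15, which had 4 counts in heterozygous replicate 1 and 35 to 51 in each of the others.

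Set beside their parents, all 24 called pseudogenes have a tested parent. In 16 the parent was not called, in 7 it was called in the same direction and in 1 in the opposite one. The 7 were Rpl36-ps2, Rpl36-ps3, Rps18-ps1, Rpl3-ps2, Rps15-ps2, Rpl18-ps2 and Rpl5-ps1. The exception was Rps24-ps3, lower while Rps24, a small-subunit gene, was higher at 0.28 (edgeR adjusted p = 0.0452). Of the 7, Rps18-ps1, Rpl3-ps2 and Rpl5-ps1 passed the filter through 1 group alone, so the filter fixed their directions. Among the 41 tested parents of tested pseudogenes, 6 were higher and 9 lower in homozygous testes. Whether called copies shared the direction of their parents more often than these shares would give was not tested.

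**Figure D4:**
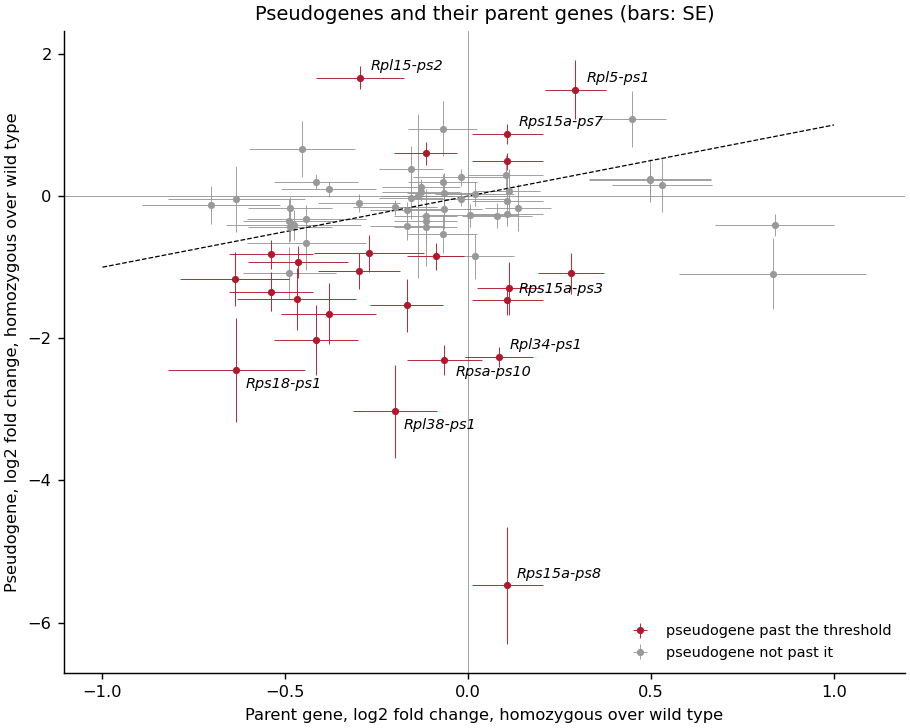
Log2 fold change in homozygous over wild-type testes of each tested pseudogene against that of its parent; bars give SEs and the dashed line marks equal change. Parents lie between about -0.70 and 0.84, while pseudogenes past the threshold (red) reach 1.67 (Rpl15-ps2) and -5.47 (Rps15a-ps8, a fitted value that depends on the prior count).

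The genes around the called pseudogenes mostly showed no shared change. The 23 named pseudogenes called in homozygous testes had 230 neighbours, 5 tested genes on each side. Of these neighbours, 30 (13.0%) were called in the direction of the pseudogene and 12.6% in the opposite one. Over all features tested 9.68% were higher and 11.1% lower. Of the 30, 9 lay around Rpl38-ps1. Around Rpl38-ps1 on chromosome 4, 9 of the 10 neighbours were lower in homozygous testes and none higher, and the same number was lower in heterozygous testes. They included Camk2n1, an inhibitor of a calcium-dependent kinase, at -1.35, Ubxn10 at -1.33, Pink1, a mitochondrial kinase, at -0.90 and Mul1, a mitochondrial ubiquitin ligase 8.67 kb away, at -0.84. In each of the other pseudogenes at most 3 neighbours were called in its direction. Rpl38-ps1 itself, at -3.03, lay outside the range of its neighbours.

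**Figure D5:**
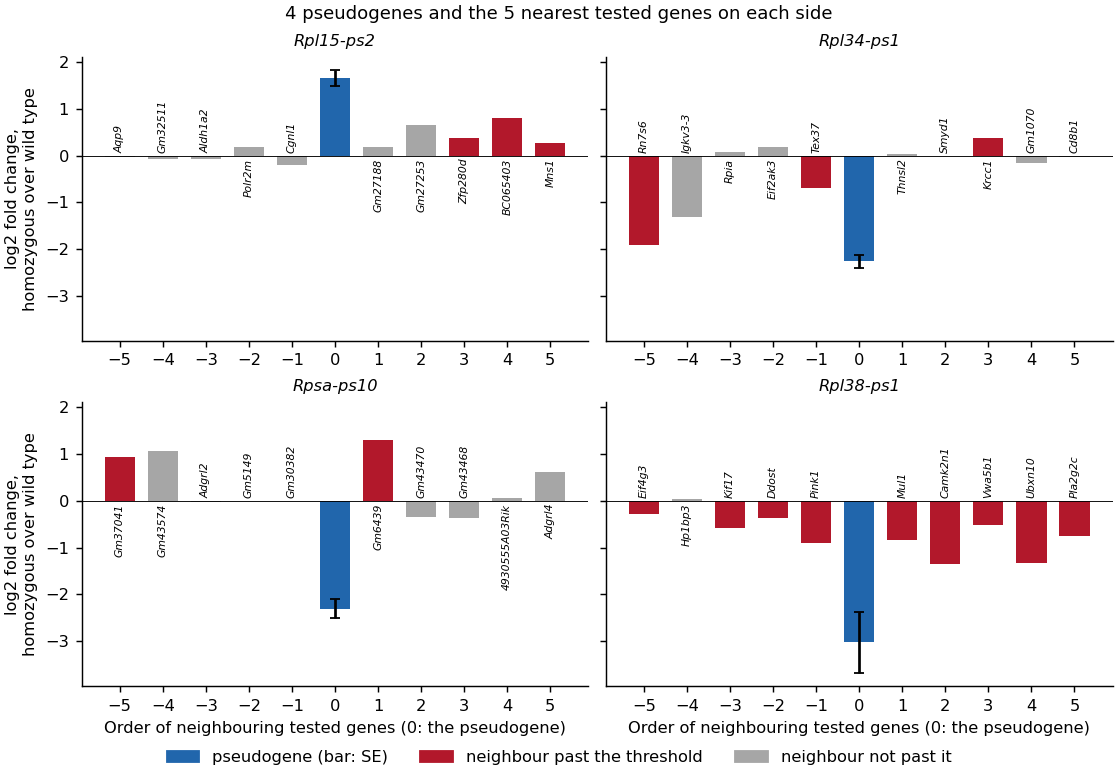
Log2 fold change in homozygous over wild-type testes of 4 pseudogenes (blue, bar: SE) and of the 5 nearest tested genes on each side (red past the threshold, grey not). Around Rpl38-ps1, 9 of 10 neighbours are below 0 and past the threshold, while Rpsa-ps10, at -2.31, stands below all of its neighbours, which lie between -0.36 and 1.31.

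By chromosome, 5 of the 7 tested pseudogenes on chromosome 4 were called in homozygous testes (1 higher, 4 lower), beside 23.0% of the 1293 features tested there. On chromosome 6, 4 of 6 were lower, beside 9.05% lower of 1105 features, and on chromosome 12, 3 of 4 were lower, beside 9.82% of 662. Chromosome 7, with 21 pseudogenes and 5 tested, had none. Chromosome 18, which carries the deleted locus, held 6 pseudogenes, of which 1 was tested and did not pass. On chromosome X, 182 of 902 tested features were higher and 22 lower, while the 2 called pseudogenes of 6 tested there, Rpl3-ps2 and Rps24-ps3, were lower. These chromosomes were picked after their counts were seen.

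Small RNA over the pseudogenes was sparse. The libraries were made from RNA treated with periodate, which enriches for RNAs with a methylated end such as piRNAs, and were counted on the sense strand, so antisense piRNAs were not measured here. Of the 275 pseudogenes, 42 had small RNA counts, 342 in all over 6 libraries of 939641 to 1861402 counts. Rps15-ps2 alone passed the filter, with 25, 18 and 20 counts in homozygous libraries and 33, 14 and 16 counts in heterozygous libraries. Its log2 fold change of 0.11 (SE 0.26) in homozygous against heterozygous testes did not pass (edgeR adjusted p = 0.938, unadjusted p = 0.763), and 0.0279% of all 3581 features tested were called. Rpl15-ps2, Rpl34-ps1 and Rpsa-ps10 had no small RNA count in any library.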

How the data were processed

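The members and the lists used here were chosen with earlier results of these data known. The deposited RNA-seq values are whole-number counts of read pairs per gene, made by the authors with featureCounts (1.6.2, per the file headers) on GENCODE mouse release 12 plus piRNA precursors. Whole genes were counted, introns included, on mm10, with multimapping reads and fragments over 2 features of a strand left out. HISAT2 2.1.0 and cutadapt 1.18 are named in the submitters' processing notes. The deposited small RNA counts cover exons on the sense strand. Symbols were matched for 49326 of 49585 gene IDs. The kit-strand counts were filtered (filterByExpr), scaled (TMM) and fitted in edgeR 4.0.16, all 9 RNA-seq libraries in 1 model, with Benjamini-Hochberg adjustment over all features tested. DESeq2 1.42.0, other scaling and filters, both strands summed, pairwise fits and leaving out each library were alternatives. The test code was tested on simulated data. Copies were aligned locally to parent transcripts (GENCODE release 21). Total counts per library set the precision. The pseudogenes named were the 2 examples given with the request (Rpl15-ps2 and Rpl34-ps1), the 25 called with the lowest p and the 10 with the highest mean CPM; others were named after their values were seen. Some of these are counted but not reported singly here.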

Additional observations from a re-analysis of the deposited data

How the results depend on the processing

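In homozygous against wild-type testes, 24 pseudogenes were called, 22 to 25 with DESeq2, other scaling, no filter, both strands summed or only the groups compared, and 15 when a mean of at least 1 CPM was required, which tests fewer of them. Leaving out 1 library gave 9 to 24. In heterozygous against wild-type testes, 19 were called, and 13 (no scaling) to 22 under the other alternatives. Leaving out 1 library gave 8 to 22. Between homozygous and heterozygous testes the count was 0 in every alternative. The share of all features called under these alternatives is not given here, so a general loss of calls cannot be told from one in the pseudogenes. Of the named calls, 8 of 23 in homozygous and 8 of 19 in heterozygous testes were kept in every alternative that could be fitted, and none changed direction. These include Rps15a-ps8 in both comparisons and Rpl38-ps1 in the homozygous one, whose directions the filter fixed. Only log2 values near 0 changed sign: Rpl17-ps5 was 0.0137 with no scaling and -0.11 to 0.0297 leaving out 1 library, Rpl14-ps1 was -0.40 to 0.0072 (the highest without wild-type replicate 1), and Rps6-ps4 was -0.10 to 0.23. Between homozygous and heterozygous testes Rpl15-ps2 was -0.0037 to 0.32. The causes were not tested. In small RNA, same-numbered homozygous and heterozygous libraries correlated at -0.15, 0.00 and -0.08, and the others at -0.12 to 0.14. With 3 libraries per group these values cannot show whether the numbers in the titles pair the samples. With the replicate number as a block 0 pseudogenes were called, as without it. A further 112 copies had counts but too few to be tested.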
